A study of Mus musculus with 31 samples.

Results

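The NIPBL chromatin immunoprecipitation libraries of splenic B cells were chosen by their titles and antibody: 3 libraries of unstimulated cells and 3 of cells stimulated for 48 h with an antibody to CD40 together with IL-4, 6 of the 31 samples of the series. Both groups were primary mature B cells from the spleens of C57BL/6 mice, both lacked AID (the deaminase that starts class switching), and both were precipitated with the same NIPBL antibody (Bethyl). The cells could therefore be activated toward switching but could not carry it out, which limits them as a model of the switch itself. The labels give no age or sex of the mice and do not say whether libraries of a group came from separate animals. Every p-value therefore measures the spread between the libraries compared, NIPBL or Rad21, which may be technical. The study's design text asks about cohesin-driven loop extrusion during switching at IgH, the immunoglobulin heavy chain locus.

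NIPBL is the loader of cohesin, the ring-shaped complex that extrudes chromatin loops. Cohesin holds Rad21 as the subunit that closes the ring. The loader is best known from active promoters and enhancers, whereas cohesin also gathers where the boundary protein CTCF stops it. In B cells, signals through CD40 and IL-4 start transcription through switch regions of the IgH locus and prepare switching to IgG1 and IgE. In stimulated B cells, loop extrusion is thought to bring switch regions together at the locus.

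Each library was deposited as a list of broad peaks on the mouse build mm9, with no read counts, so the depth behind each list is unknown. The lists held 890488 to 1332851 peaks, and those numbers overlapped between the groups. Strong peaks (−log10 q of at least 5) numbered 201804, 426007 and 238888 in the unstimulated libraries and 79409, 39531 and 148800 in the stimulated ones. All 3 stimulated lists thus held fewer of them (two-sided exact permutation test p = 0.1, the smallest that 3 against 3 allows, adjusted p = 0.433 over 13 list measures). To compare lists of unequal strength, the 20000 peaks with the highest −log10 p of each list, called top peaks here, were used. Presence or absence below therefore means a place among the strongest peaks of a library, not the presence of any peak. Touching or overlapping top peaks of the 6 libraries were joined into sites. No annotation of mm9 was used here, so places are given by mm9 coordinates without gene names. The IgH region is the one locus named. It is a fixed window of chromosome 12, from 114300001 to 114700000, and sites and bins inside it are called IgH ones. Where the locus ends and its flanks begin within this window was not worked out.

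A core of sites held the loader before and after stimulation, and a small set entered or left the strongest peaks. Of 67616 sites, 6675 had a top peak in all 6 libraries and are called common. A further 470 sites had one in all 3 stimulated libraries and in none of the unstimulated ones (gained), and 377 had the opposite pattern (lost). Most sites, 53543, were seen in 1 library alone, with a median span of 51 bp, the narrowest peak width in the lists. The common sites had a median span of 1521 bp and held 57.6% to 71.2% of the length covered by top peaks. Their strongest peaks ranked at a median of 3630 to 3820 of 20000 in the 6 libraries. Gained sites ranked lower, at medians of 8573 to 9319 in the stimulated libraries, and so did lost sites, at 7517 to 7854 in the unstimulated ones. Presence has no spread within a group by this rule, so these counts carry no test. They were 503 to 1058 gained and 441 to 694 lost when each library in turn was left out, the highest values being without unstimulated replicate 1 and without unstimulated replicate 3. The rule is looser with 1 library fewer, so a rise follows from it and these ranges are no check of stability.

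**Figure D1:**
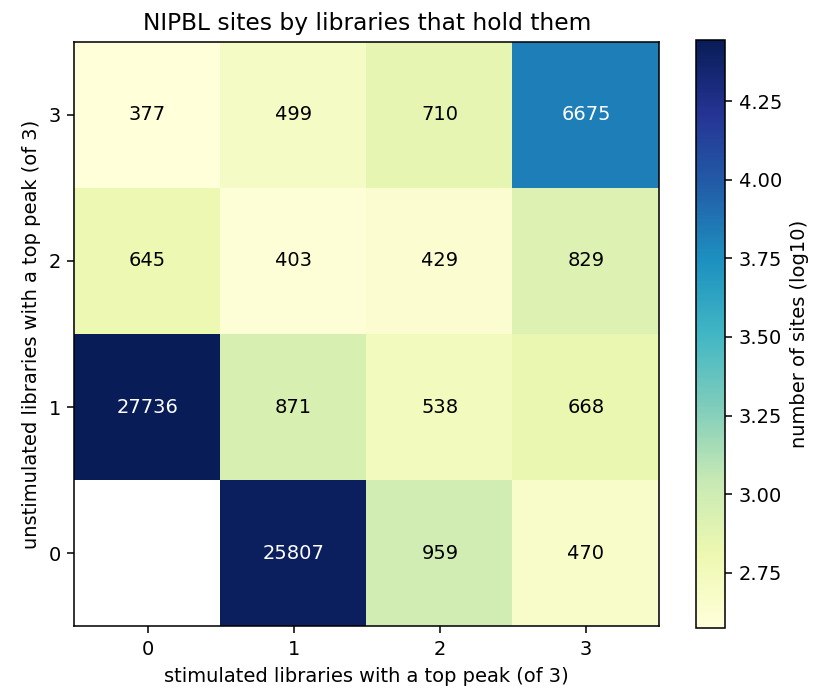
Number of NIPBL sites (colour, log10 scale, with the count in each cell) by how many of the 3 unstimulated libraries (vertical axis) and of the 3 stimulated libraries (horizontal axis) held a top peak there. The 6675 common sites are at the top right, the 470 gained sites at the bottom right and the 377 lost sites at the top left.

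Most gained and lost sites were covered in both states once every deposited peak was counted. Gained sites then had a median covered length of 72.3%, 64.4% and 61.9% of the site in the unstimulated libraries and 78.7%, 89.2% and 86.5% in the stimulated ones, or 66.2% ± 5.43 against 84.8% ± 5.47 (SD, n = 3 each). Only 2, 5 and 0 of the 470 lacked any peak in the 3 unstimulated libraries. Lost sites went from 88.8%, 77.9% and 74.7% to 56.1%, 67.5% and 66.1%, or 80.5% ± 7.38 against 63.3% ± 6.23. The change at these sites was therefore one of degree in the peak lists. These are the libraries that defined the classes, so the values are a description. Among the 14073 sites with a top peak in at least 2 libraries, all-peak coverage was higher without overlap after stimulation at 9.21% and lower at 8.88%. Gained sites met the first pattern in 135 of 470 cases and lost sites the second in 95 of 377.

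In terms of covered length among top peaks, the largest gained site lay in the IgH region, at chromosome 12 from 114572412 to 114577984. Its top peaks covered 4172, 4906 and 2446 bp in the stimulated libraries and none in the unstimulated ones. Next came a site at chromosome 15 from 91737017 to 91740877, with 3844, 3819 and 3844 bp after stimulation. These sites part once every deposited peak is counted. The IgH site went from 32.6%, 37.6% and 16.7% covered to 84.2%, 94.9% and 89.2%. The chromosome 15 site was covered at 98.5%, 87.7% and 89.6% before and 99.6%, 98.9% and 99.6% after, so it was nearly filled in both states and changed mainly in rank. The site at chromosome 15 from 84384340 to 84388419 lay between them, with 55.4%, 33.8% and 75.2% before and 99.6%, 90.5% and 80.7% after.

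Ordered by the change in all-peak coverage, an ordering chosen after the values were seen, 2 of the 10 leading gained sites lay in the IgH region. The other 2 gained IgH sites, from 114469610 and from 114311422, stood at places 252 and 323 of 470, with changes of 13.9 and 8.47 points. The leading site, at chromosome 9 from 107235692 to 107237392, was covered at 3.00%, 13.3% and 16.2% before and 66.6%, 88.1% and 88.3% after. A second site of the leading 10, at chromosome 9 from 107207582 to 107211180, lay close to it and went from 31.9%, 11.5% and 28.2% to 78.1%, 88.0% and 93.9%. Likewise 2 of the 10 lay next to each other on chromosome 13, from 52915238 to 52916350 and from 52920140 to 52920889. The second of this pair had no peak in 2 unstimulated libraries and 7.87% in the third, against 48.9%, 92.4% and 48.0% after stimulation. At the third place stood an IgH site from 114564506 to 114566192, and at the ninth the one from 114572412.

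Among lost sites the fullest disappearance was at chromosome 11 from 44437872 to 44438522, covered at 65.3%, 39.9% and 100% before and free of any deposited peak in all 3 stimulated libraries. A site at chromosome 8 from 11097628 to 11099071 went from 91.5%, 96.4% and 81.0% to 28.0%, 40.2% and 27.0%. By covered length, the leading lost site was on chromosome X from 70960935 to 70964392, with 3368, 2260 and 2431 bp of top peaks before and none after. With every peak counted it kept 78.6%, 75.1% and 69.9% after stimulation, so most of its extent remained. The lost site at chromosome 15 from 101096073 to 101099304 kept less, with 48.1%, 78.6% and 42.3% against 91.8%, 100% and 88.8% before.

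A fixed grid of 10 kb bins gave a test. The percent of each bin covered by top peaks was compared with limma over 18332 bins covered in at least 2 libraries, with Benjamini-Hochberg adjustment and a threshold of 0.05. It called 321 gains (1.75% of bins tested) and 227 losses (1.24%), or 2.99% in either direction. The groups did not overlap in 7.48% of tested bins that were higher after stimulation and in 7.65% that were lower, the called bins among them. Of the gains, 262 had no top peak in any unstimulated library. Of the losses, 154 had none in any stimulated library. A group at 0 throughout has no spread, and among bins covered in all 6 libraries only 1 gain and 14 losses were called. With every deposited peak counted 255822 bins were tested and the totals became 1442 gains (0.564%) and 89 losses (0.0348%), and only 15 of the 321 gains and 3 of the 227 losses were called again. In that setting 269 of the 321 gains were higher after stimulation, and 129 of the 227 losses were lower. With 40000 top peaks 106 of the 321 gains and 35 of the 227 losses were called again, so calls of both directions depended on how many peaks were counted.

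The bin with the largest gain was at chromosome 7 from 52090001 to 52100000. Top peaks covered 30.7%, 26.1% and 20.98% of it before and 88.3%, 93.7% and 99.3% after, a difference of 67.8 points (SE 3.97, limma adjusted p = 0.00424). It was called without each of the 6 libraries in turn. With every deposited peak it was covered at 81.3%, 68.5% and 52.6% before and 88.8%, 94.2% and 99.3% after, and the difference shrank to 26.6 points. The bin at chromosome 1 from 90150001 gained 56.7 points (SE 4.503, limma adjusted p = 0.00845), from 15.4%, 0.00% and 0.00% to 60.8%, 64.0% and 60.6%. With every peak its groups overlapped, at 70.7%, 58.4% and 63.2% against 76.1%, 85.3% and 67.7%, a difference of 12.3 points (limma adjusted p = 0.0863). The bin at chromosome 11 from 117680001 went from 19.8%, 5.09% and 14.8% to 44.0%, 48.5% and 49.1% (limma adjusted p = 0.014), and with every peak from 31.7%, 49.0% and 43.6% to 72.2%, 79.4% and 75.0%. At chromosome 13, the bin from 53070001 went from 0 in each unstimulated library to 30.6%, 28.2% and 33.3%. With every peak it differed by 20.5 points (limma adjusted p = 0.0858). By top peaks the chromosome 1, 11 and 13 bins were called in each leave-one-out fit. Named bins were chosen among called bins whose groups did not overlap, so that feature is no further result.

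For other leading gains the direction or most of the difference was tied to the choice of peaks. The bins at chromosome 15 from 75930001 and from 91730001 went from 0 to 34.5%, 36.3% and 35.3% and to 29.7%, 29.7% and 29.8%, yet their all-peak differences were 4.18 and 1.07 points. The bin at chromosome 4 from 133680001 rose from 14.2%, 11.8% and 14.4% to 36.3%, 58.8% and 51.9%, and its difference turned to −1.61 points with the top 10000 peaks. The bin at chromosome Y from 2790001 rose from 5.15%, 11.8% and 2.01% to 53.3%, 36.5% and 57.5% and turned to −1.31 points in the same setting.

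The largest loss was at chromosome 15 from 101080001 to 101090000. It fell from 56.4%, 40.7% and 45.8% to 0.00%, 7.09% and 0.00%, a difference of −45.3 points (SE 4.45, limma adjusted p = 0.0116). The bin at chromosome 8 from 121940001 fell from 51.3%, 46.0% and 49.8% to 3.55%, 8.24% and 11.8%. On chromosome 14 the bin from 15180001 fell from 47.0%, 47.0% and 46.5% to 8.70%, 7.90% and 9.39%. By top peaks each of these bins was called without each library in turn. With all deposited peaks none of these bins was called. The chromosome 15 bin then went from 67.4%, 55.0% and 64.8% to 34.4%, 47.6% and 45.6% (limma adjusted p = 0.0551). The chromosome 8 bin, at 59.7%, 54.1% and 66.2% against 41.7%, 55.5% and 58.3%, had overlapping groups (limma adjusted p = 0.548). On chromosome 14 the difference shrank to −11.9 points (limma adjusted p = 0.37).

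Calls rarely ran on over neighbouring bins. Gains formed 13 runs and losses 4 runs, each of 2 bins. The loss runs were on chromosome 8 from 86260001, chromosome 14 from 70470001, chromosome 17 from 34410001 and chromosome 19 from 41400001. The chromosome 17 run fell from 23.2%, 24.0% and 25.5% covered to 4.79%, 6.48% and 10.8%. The strongest gain runs were on chromosome 15 from 91730001 and chromosome X from 121290001, the latter at 15.5%, 16.9% and 20.3% after stimulation. Another call of the same direction lay within 100 kb for 59 gains and 24 losses.

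**Figure D2:**
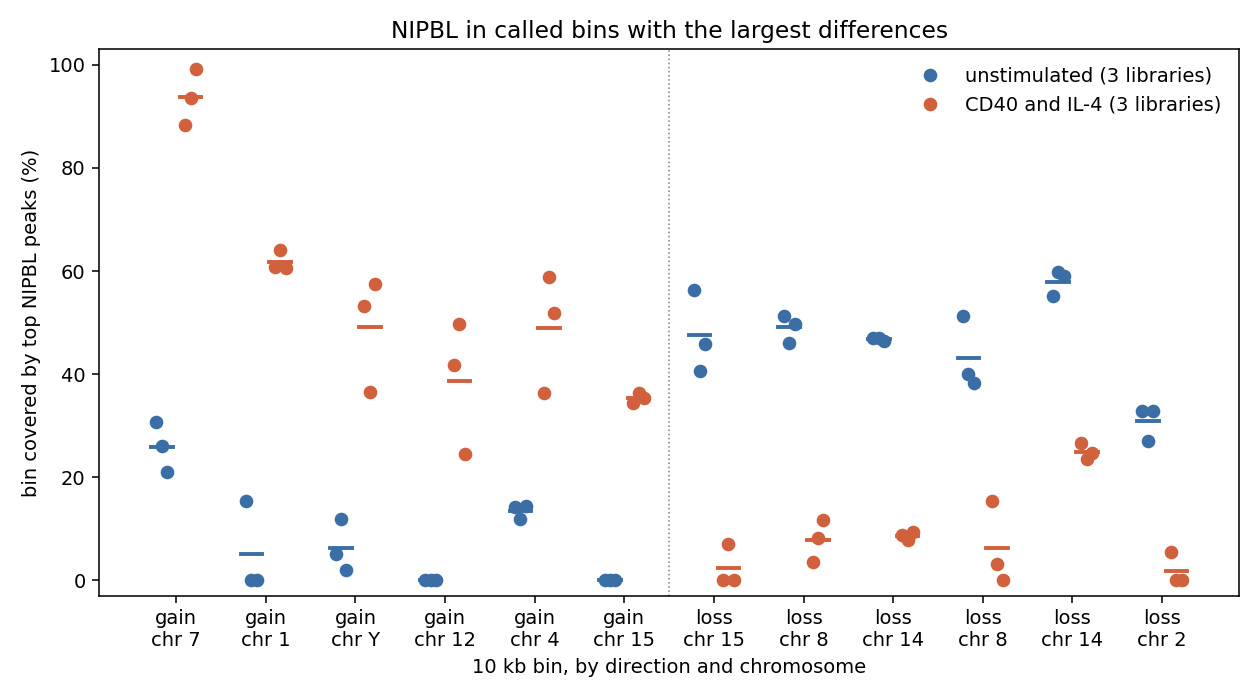
Percent of a 10 kb bin covered by top NIPBL peaks (vertical axis) in 6 bins with large gains and 6 with large losses (horizontal axis, by chromosome), 1 point per library and a line at each group's mean. The chromosome 18 loss from 80900001 (−30.5 points) is not shown, although it exceeds the chromosome 2 loss that is shown (−29.1 points). In the first bin, on chromosome 7, the unstimulated libraries lie between 20.98% and 30.7% and the stimulated ones between 88.3% and 99.3%.

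In the IgH region, here 40 bins of chromosome 12 between 114300001 and 114700000, NIPBL gained a stretch that had no top peak in resting cells. The bin from 114570001 went from 0 in all 3 unstimulated libraries to 41.7%, 49.8% and 24.5%, a difference of 38.7 points (SE 6.27, limma adjusted p = 0.0358). With every deposited peak it went from 21.5%, 25.0% and 10.0% to 58.3%, 68.8% and 66.1% (limma adjusted p = 1.29e-08). This call was lost when any library but stimulated replicate 3 was left out, with adjusted p from 0.0139 to 0.124, although the difference stayed between 33.1 and 45.7 points. The neighbouring bin from 114560001 had no top peak before and 20.2%, 5.63% and 15.9% after (adjusted p = 0.185). Its site from 114564506 to 114566192 was covered by deposited peaks at 14.6%, 36.3% and 3.02% before and 100%, 52.4% and 94.3% after. At both of these neighbouring sites the groups did not overlap.

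The IgH region also held sites whose coverage overlapped between the groups. The widest lay from 114658783 to 114666177, where top peaks covered 6659, 2937 and 4250 bp before and 4912, 5665 and 3609 bp after. Its bin from 114660001 was covered at 54.4%, 29.4% and 42.5% before and 47.1%, 45.0% and 29.9% after (difference −1.46 points, SE 7.60, limma adjusted p = 0.993). A site from 114459570 to 114461993, present in all 6 libraries, covered 2163, 1446 and 1529 bp before and 1811, 1864 and 1558 bp after. The other site in all 6, from 114392957 to 114396317, covered 1982, 2082 and 1770 bp before and 2010, 2607 and 3225 bp after, with its bin at an adjusted p of 0.42.

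A pair of further IgH bins passed the test and rested on the choice of top peaks. The bin from 114400001 fell from 15.2%, 9.30% and 14.5% to 0 in all 3 stimulated libraries (limma adjusted p = 0.0239), but rose by 12.1 points with every peak counted. Its site, from 114405589 to 114407119, was covered at 99.0%, 70.9% and 94.8% before and 68.9%, 99.9% and 94.8% after. The bin from 114470001 went from 0 to 12.7%, 8.64% and 12.1% (limma adjusted p = 0.0172), with an all-peak difference of 1.46 points. The lost IgH site from 114425677 to 114427505 also depended on that choice, with 96.3%, 48.2% and 61.5% covered by deposited peaks before and 97.5%, 95.3% and 99.8% after. Of the 40 bins, 17 were covered in at least 2 libraries and were tested. The constant-region genes stand, by ascending coordinate in the RefSeq annotation of GRCm38.p6, in an order that starts with Igha and Ighe. The genes of the IgG subclasses follow (Ighg2c, Ighg2b, Ighg1 and Ighg3), and Ighd with Ighm come last. Each encodes the constant part of the heavy chain of its antibody class or subclass. Which of these genes the mm9 sites cover was not worked out here.

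**Figure D3:**
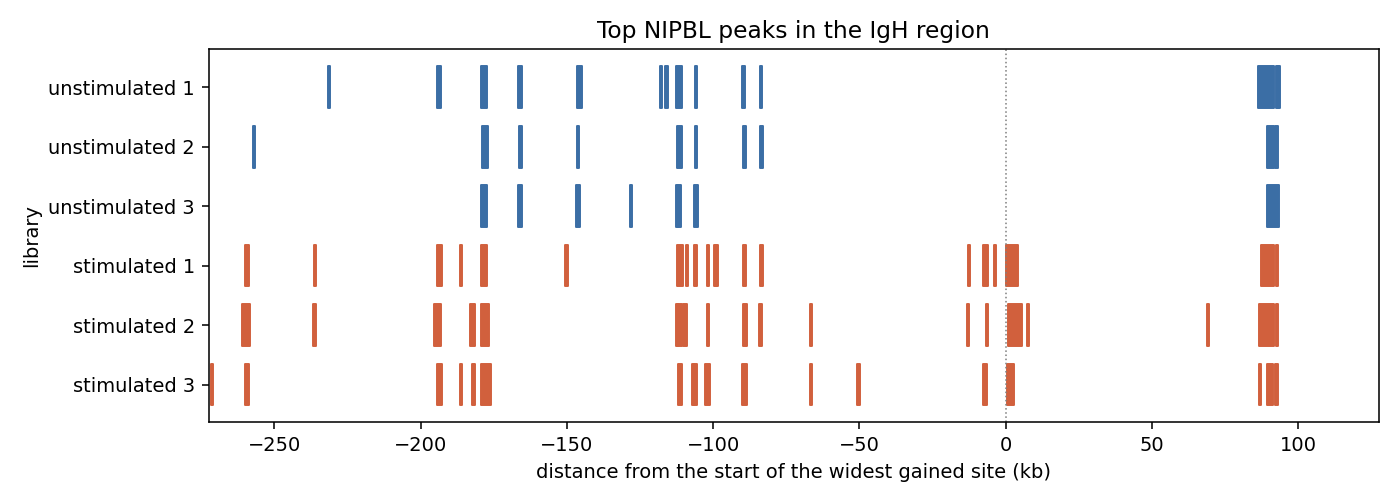
Top NIPBL peaks (bars) of the 6 libraries (rows) in the IgH region, by distance in kb from the start of the gained site at 114572412. All 3 stimulated libraries have peaks at and just left of 0, where the unstimulated libraries have none, and all 6 have the wide site near the right end.

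At sites with a top peak in all 6 libraries, the typical covered length differed by less than the spread between libraries. The median covered length of the 6675 common sites was 1155, 1068 and 1061 bp in the unstimulated libraries and 1007, 1117 and 1122 bp in the stimulated ones, or 1095 ± 52.4 against 1082 ± 65.0 bp (SD, n = 3 each, two-sided exact permutation test p = 0.9, adjusted p = 1 over 8 measures). The median change per site was −0.021 on the log2 scale, with the 5th to 95th percentile from −0.544 to 0.529. Over the 103796 sites present in all 6 libraries with every deposited peak the median change was 0.39, with 13671 sites wider and 1628 narrower at an unadjusted p under 0.05. Common sites made of more than 1 peak were 2.82% ± 0.307 of sites before and 4.12% ± 0.533 after, with the groups apart (exact permutation test p = 0.1, adjusted p = 0.4). The groups did not overlap at 374 sites that were wider after stimulation (5.6%) and 627 that were narrower (9.39%).

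Over whole sets of top peaks, width depended on the library. The median width was 656, 215 and 254 bp in the unstimulated libraries and 442, 532.5 and 552 bp in the stimulated ones, so unstimulated replicate 1 lay above all stimulated libraries and the other two below them (375 ± 244 against 509 ± 58.7 bp, exact permutation test p = 0.4, adjusted p = 1). Peaks under 200 bp made up 31.0%, 49.7% and 48.7% of top peaks before and 38.4%, 35.6% and 34.5% after. Among peaks of 200 bp or more the median width was 955, 950.5 and 945 bp before and 841, 930.5 and 936 bp after, lower in each stimulated library (exact permutation test p = 0.1, adjusted p = 0.433). Peaks of 1 kb or wider made up 32.5%, 23.1% and 23.3% before and 23.6%, 29.1% and 30.1% after, with overlapping groups. The few peaks of 10 kb or wider made up 0.02%, 0.01% and 0.015% before and 0.025%, 0.03% and 0.05% after. That share was higher in each stimulated library (exact permutation test p = 0.1, adjusted p = 0.433).

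At single common sites, limma on the log2 covered length called 11 of 6675 (0.165%), of which 3 were wider and 8 narrower after stimulation. The widest gain was at chromosome 7 from 52088865 to 52100882, the site under the leading bin. Its top peaks covered 3071, 2615 and 2098 bp before and 8829, 10249 and 11062 bp after, a log2 change of 1.96 (SE 0.159, limma adjusted p = 0.0109). With every deposited peak its span was covered at 77.6%, 58.2% and 47.5% before and 85.5%, 94.5% and 95.8% after, and the log2 change was 0.61 (limma adjusted p = 0.0899). A site on chromosome 10 from 21867806 to 21871668 widened from 1399, 1848 and 1384 bp to 3782, 3580 and 3623 bp. One on chromosome 11 from 98634762 to 98637045 widened from 710, 828 and 769 bp to 1775, 2057 and 1785 bp. The smallest of the 3 stimulated values exceeded the largest unstimulated one at each.

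Among narrowed sites, the one at chromosome 6 from 113618567 to 113620798 shrank from 2232, 1291 and 1407 bp to 203, 332 and 233 bp (log2 change −2.67, SE 0.284, limma adjusted p = 0.0245). At chromosome 2 from 167599676 to 167604590 the loader covered 4361, 4404 and 4128 bp before and 1663, 1884 and 1703 bp after (log2 change −1.30, limma adjusted p = 0.0101). At chromosome 14 from 70473821 to 70480613 it covered 6062, 6524 and 6508 bp before and 2658, 2354 and 2477 bp after. Also on chromosome 14, the site from 15177165 to 15185172 went from 7184, 6858 and 7216 bp to 3706, 3132 and 3234 bp. At the chromosome 2 and chromosome 14 sites replicates of a group lay close together. The chromosome 6 site varied more, with an SD of 513 bp before stimulation, and was called in 0 of 6 leave-one-out fits. All were named because they were called, so the gap between their groups is part of that choice. The other called sites were on chromosomes 8, 10, 1 and 11, with log2 changes from −1.58 to −1.18.

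These width calls rested on all 6 libraries. No site was called without unstimulated replicate 2 or without stimulated replicate 3, and each other omission left 5 or 6 calls. With every deposited peak counted there were 103796 common sites, of which 136 were wider (0.131%) and 6 narrower (0.00578%), and the chromosome 14 site from 70473821 differed by −0.06 on the log2 scale, its covered share being 89.2%, 96.0% and 95.8% before and 89.9%, 91.1% and 88.3% after.

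**Figure D4:**
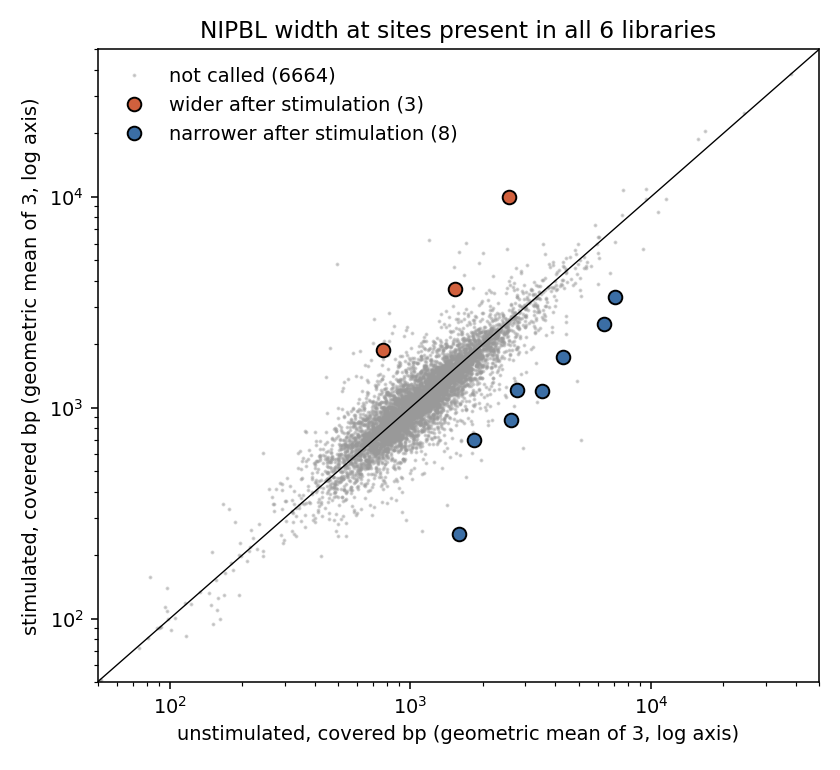
Length covered by top NIPBL peaks at the 6675 common sites, as the geometric mean of 3 unstimulated libraries (horizontal, log axis, bp) against that of 3 stimulated libraries (vertical, log axis, bp). The diagonal marks equal length, and the 3 wider and 8 narrower sites called by limma are filled.

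Few of the broadest domains passed the test. Among 28 common sites whose geometric mean covered length over the 6 libraries was 5 kb or more, the chromosome 7 site was called. By the arithmetic mean there were 29, and the narrowed chromosome 14 site from 15177165 joined them. The longest began at the first assembled bases of chromosome 9, from 2999990 to 3038549, and covered 38323 to 38560 bp in all 6 libraries. It was not particular to the loader or to spleen. Top Rad21 peaks covered 37291 to 38352 bp of it in the splenic Rad21 libraries. Top NIPBL peaks covered 38113 to 38510 bp in the B lymphoma line described at the end. Other domains of 5 kb or more lay on chromosome 11 from 3022692 and on chromosome 6 from 47692568. The latter had 10994, 10329 and 10809 bp before and 8426, 8007 and 8958 bp after (limma adjusted p = 0.252).

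Rad21 libraries of the same cell states, 3 per group and made with another antibody, did not enter the choice of NIPBL sites and bins. A top Rad21 peak stood at 43.2%, 39.0% and 51.7% of the 377 sites that lost the loader in unstimulated cells and at 13.3%, 14.3% and 11.4% in stimulated cells. The share was lower in each stimulated library (44.7% ± 6.48 against 13.0% ± 1.48, two-sided exact permutation test p = 0.1, adjusted p = 0.125 over 5 tests). At common sites it was 20.0%, 18.4% and 27.7% before and 14.8%, 13.1% and 11.0% after. Lost sites exceeded common sites by 23.3, 20.6 and 24.0 points before and by −1.51, 1.19 and 0.36 points after, so the excess of top Rad21 peaks at these sites was present in resting cells and near 0 after stimulation (exact permutation test p = 0.1, adjusted p = 0.125). Gained sites carried a top Rad21 peak at 10.6%, 10.4% and 11.5% before and at 11.7%, 11.7% and 8.72% after, with overlapping groups. They differed from common sites by −9.33, −7.96 and −16.2 points before and by −3.07, −1.44 and −2.32 points after. These differences did not overlap between the groups (two-sided exact permutation test p = 0.1, adjusted p = 0.125), while the share at common sites itself fell. With every deposited Rad21 peak, lost sites had a median coverage of 79.3%, 72.5% and 54.4% before and 8.98%, 60.5% and 33.9% after, with overlapping groups. Common sites had 48.3%, 44.2% and 28.8% before and 8.86%, 53.9% and 28.6% after. Some deposited Rad21 peak stood at 62.9%, 98.4% and 89.4% of lost sites in the stimulated libraries.

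The same question was put to bins. Over 22603 bins tested for Rad21, 2.69% were losses and 0.128% gains, and among the 6046 tested for both proteins 6.22% were Rad21 losses and 0.116% gains. Of 128 bins that lost NIPBL and were tested for Rad21, 28 (21.9%) were Rad21 losses, none was a Rad21 gain, and 52 (40.6%) were lower without overlap, against 18.1% of the 6046 bins and 9.76% of all Rad21 bins. Of 93 tested bins that gained NIPBL, 1 was a Rad21 loss and none a gain, and 6 (6.45%) were higher without overlap, against 3.03% of the 6046 bins and 7.07% of all Rad21 bins. Nearly as many of the 93, 5 (5.38%), were lower without overlap. Their median Rad21 difference was 0.173 points, against −1.54 over the 6046 bins. No Rad21 bin was called when any 1 of the stimulated Rad21 libraries was left out, with 41 to 51 of these bins at an unadjusted p under 0.05 in the same direction. Leaving out an unstimulated Rad21 library left 16 to 45 calls. The mean Rad21 coverage of bins that lost the loader was 8.20%, 7.38% and 6.17% before and 1.32%, 2.68% and 1.58% after. Over all 18332 bins tested for NIPBL it was also lower after stimulation, at 3.21%, 3.08% and 2.25% before and 1.20%, 2.38% and 1.52% after.

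**Figure D5:**
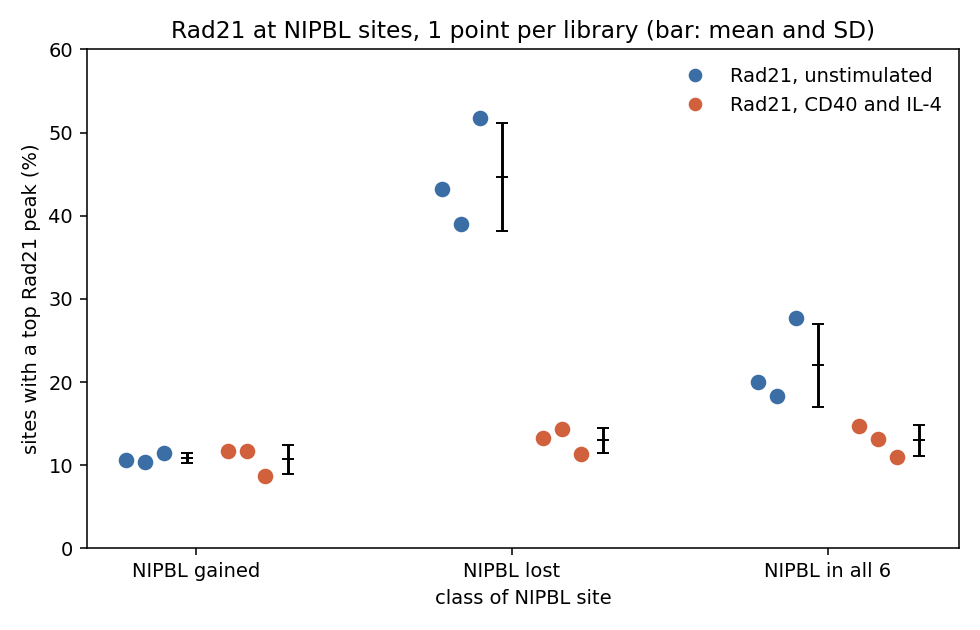
Percent of NIPBL sites with a top Rad21 peak (vertical axis) by class of NIPBL site (horizontal axis), 1 point per Rad21 library, with the mean and SD of 3 libraries beside each group. At lost sites the unstimulated libraries lie between 39.0% and 51.7% and the stimulated ones between 11.4% and 14.3%, while at gained sites the groups overlap.

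Single bins were called as losses of both proteins by top peaks. At chromosome 9 from 44380001 Rad21 covered 72.5%, 49.8% and 33.3% of the bin before and 1.27%, 0.00% and 0.74% after, while NIPBL fell by 6.72 points. At chromosome 19 from 41410001 Rad21 went from 20.6%, 17.0% and 26.9% to 0 in all 3 stimulated libraries, and NIPBL fell by 15.1 points. At chromosome 9 from 32450001 Rad21 went from 25.1%, 21.9% and 19.8% to 0.65%, 0.00% and 0.00%. These bins were chosen because both proteins were called, so the gap between the Rad21 groups is part of that choice. A lost site from 32459085 starts in the last of these bins. With every deposited Rad21 peak this site was covered at 100%, 100% and 89.8% before and 23.3%, 89.7% and 47.9% after. Of the 10 bins with the largest NIPBL gains, 5 had no top Rad21 peak in any of the 6 Rad21 libraries, among them those at chromosome 7 from 52090001, chromosome 1 from 90150001 and chromosome 12 from 114570001. The other 5 held Rad21 in both states with overlapping groups, as at chromosome Y from 2790001, where it covered 72.4%, 73.1% and 0.00% before and 68.8%, 0.00% and 73.8% after. With every deposited Rad21 peak, the IgH gained site from 114572412 was covered at 0.00%, 0.987% and 0.00% before and 28.5%, 55.3% and 38.0% after, higher in each stimulated library. The IgH site from 114564506 went from 0 in all 3 to 25.1%, 70.8% and 35.9%. The gained site at chromosome 9 from 107235692 went from 0 in all 3 to 53.9%, 73.3% and 47.4%, and the one at chromosome 13 from 52915238 from 0 in all 3 to 55.0%, 90.9% and 71.6%. Over all 470 gained sites the median Rad21 coverage was 6.60%, 12.0% and 0.00% before and 0.00%, 39.99% and 19.4% after, so stimulated Rad21 replicate 2 was high throughout, and these 4 sites stood above the median in each stimulated library. They were chosen after their values were seen.

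Chromosome X held a smaller share of the loader's strong peaks after stimulation. It held 2.71%, 3.58% and 2.75% of top peaks before and 1.75%, 1.87% and 1.995% after (3.02% ± 0.493 against 1.87% ± 0.123, two-sided exact permutation test p = 0.1, adjusted p = 0.233 over 21 chromosomes). Chromosome Y moved the other way, with 0.05%, 0.03% and 0.04% before and 0.065%, 0.07% and 0.08% after, and the labels give no sex of the mice, whose part in these shares was not tested. Of all deposited peaks chromosome X held 3.99%, 4.02% and 4.07% before and 2.92%, 3.08% and 3.31% after. The groups did not overlap on 9 of 21 chromosomes for top peaks and on 16 of 21 for all peaks. Chromosome 11 held 6.82% ± 0.537 before and 7.66% ± 0.115 after, and chromosome 3 held 5.84% ± 0.525 and 5.02% ± 0.0904. Chromosome X had 31 of the 377 lost sites (8.22%), 7 of the 470 gained sites and 54 of the common sites (0.809%). Chromosome 4 had 60 of the gained sites (12.8%) and 442 of the common ones (6.62%). These shares of sites come from the libraries that defined the classes and carry no test.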

How the data were processed

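Chromatin immunoprecipitation with sequencing was done with antibodies to NIPBL and Rad21. Per the submitters' processing notes, Bowtie2 and MACS2 were used with the build mm9. Versions, calling thresholds and the control are not given in the sources. The deposited broad peak lists, 1 per library, hold for each peak a score, a fold enrichment (a ratio) and −log10 p and q values that the authors' caller wrote. These were used to rank and filter peaks within a list. Replicates were not pooled.

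Peaks on the 21 main chromosomes were ranked by −log10 p and the leading 20000 of each library used. Covered percent of 10 kb bins (bins covered in at least 2 of 6 libraries) and log2 covered length of common sites were compared with limma 3.58.1 in R 4.3.3, with a mean-variance trend and no covariate, and Benjamini-Hochberg adjustment over all bins or sites tested. List measures were compared by exact permutation tests. Python 3.11.15 was also used. No pair of lists shared more than 0.495% of peak starts. Named places are, in each direction, the 10 called bins that differed most and the 10 gained or lost sites of greatest covered length (examples of each are given), the called width sites, the runs and the IgH bins. The members and lists were chosen with earlier results of these data known. Planned fits at gene starts and gene bodies were not run, since no mm9 annotation was used here, and no sequence is shown for the same reason. Alternatives were other numbers of top peaks, equal covered length, all peaks, a −log10 q minimum of 5, ranking by fold, other bins, filters and weights, a replicate block, and leaving out each library.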

Additional observations from a re-analysis of the deposited data

How the results depend on the processing

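Bin calls, 321 gains and 227 losses, became 1442 and 89 with all deposited peaks, 0 and 0 with peaks of −log10 q of 5 or more (676 and 12866 at an unadjusted p under 0.05), 143 and 81 in 50 kb bins, and 1 and 14 among bins covered in all 6 libraries, a filter chosen after seeing the data. Losses were 458 with 10000 top peaks, 66 with 40000 and 416 at equal covered length. Leaving out each library gave 217 to 655 gains (655 without unstimulated replicate 1, 217 without unstimulated replicate 2) and 199 to 371 losses (371 without unstimulated replicate 3, 199 without stimulated replicate 2). Width calls, 3 wider and 8 narrower, became 1 and 2 with 40000 top peaks, 5 wider at equal covered length, 136 wider with all peaks, 9 wider at −log10 q of 5 or more, and 4 narrower among peaks of 200 bp or wider (chosen after seeing the data), and ranged from 0 to 4 wider and 0 to 5 narrower without 1 library. Gained sites, 470, became 746 with 40000 top peaks, 16693 with all peaks, 254 at −log10 q of 5 or more and 503 to 1058 without 1 library. Lost sites, 377, became 10657 with all peaks, 2791 at −log10 q of 5 or more, 685 among peaks of 200 bp or wider and 441 to 694 without 1 library. For gained and lost sites the rule is looser with 1 library fewer, so a rise follows from it. The 28 Rad21 losses at bins that lost NIPBL became 0 to 45. The cause was not tested.

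The stimulated minus unstimulated difference in median peak width turned to −34 bp with 10000 top peaks and −10 bp with all peaks, and that in the share of peaks of 1 kb or wider to −2.43 points with 10000 and −0.308 to 4.39 points without 1 library. The 1 kb share kept its direction at −log10 q of 5 or more (8.28 points) and with all peaks (0.455 points), each with an exact permutation test p of 0.1. The share of 5 kb or wider turned to 0.000953 points with all peaks, 0.0362 at −log10 q of 5 or more and −0.0367 to 0.005 without 1 library. Covered length turned to −0.375 Mb with 10000 and −27.4 Mb at −log10 q of 5 or more. Reversed bins were those from 2790001 on chromosome Y (−1.31 points with 10000 top peaks), 133680001 on chromosome 4 (−1.61 with 10000, −1.64 at equal covered length), 75930001 on chromosome 15 (−4.39 at −log10 q of 5 or more), and 114400001 (12.1 with all peaks) and 114470001 (−2.79 at −log10 q of 5 or more) on chromosome 12. Of 587 alternative values for named bins and sites, 352 kept direction and call, 229 kept direction alone and 6 reversed.

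Deviations of same-numbered libraries from their group means had correlations of −0.0992, −0.0176 and −0.0381 over bins. With 3 libraries per group these values cannot tell whether same-numbered libraries were paired, and the labels do not say. With the replicate number as a block, limma called 0 gains, 0 losses, 0 wider and 0 narrower sites, with 846 and 775 bins and 222 and 300 sites at an unadjusted p under 0.05. No site or bin level can be read below a peak, since the lists give no depth.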

Other observations

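NIPBL libraries of CH12F3NCdel cells, AID-deficient cells of the mouse B lymphoma line CH12F3, either unstimulated or stimulated for 24 h with anti-CD40, IL-4 and TGFb, did not enter the choice of splenic sites. Of the 6675 splenic common sites, 92.8% and 44.7% had a top NIPBL peak in the 2 unstimulated CH12F3NCdel libraries and 57.9% and 40.9% in the 2 stimulated ones. Of the gained sites, 40.4% and 7.87% had one in unstimulated and 12.6% and 8.94% in stimulated CH12F3NCdel cells. Of the lost sites, the shares were 36.1% and 9.02%, then 9.55% and 6.90%. The CH12F3NCdel replicates differed widely, and gained and lost sites had close shares within each library. The gained IgH sites from 114564506 and from 114572412 had no top peak in any of the 4 CH12F3NCdel libraries. The narrowed site at chromosome 8 from 86270856 to 86274056 had 1704, 846, 1246 and 2127 bp of top peaks in these 4 libraries, and the gained site at chromosome 16 from 20619625 to 20622785 had 3161, 3150, 3161 and 2678 bp.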
